A study of Mus musculus with 6 samples.

Results

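The nuclear genes that code for subunits of the oxidative phosphorylation complexes were examined in primary mouse embryonic fibroblasts with and without HAT1, an acetyltransferase whose substrate is new histone H4. Members were taken by gene symbol alone (the families Nduf, Sdh, Uqcr, Cyc1, Cox and Atp5). No measured value entered that rule, but earlier results of these data were known when the members were chosen. This gave 82 of the 17512 genes with counts, of which 80 were among the 14773 genes expressed highly enough to be tested. Complex I (NADH dehydrogenase) had 36 members, complex II (succinate dehydrogenase) 4, complex III (cytochrome bc1) 9, complex IV (cytochrome c oxidase) 16 and complex V (ATP synthase) 17.

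RNA was sequenced from 6 lines of primary fibroblasts (pMEFs) of C57bl6 background, grown in DMEM with 10% serum. Each line was labelled with its genotype, its number and its sequencing lane. The HAT1 WT lines were 36 (lane 8), 47 (lane 6) and 78 (lane 7), and the HAT1 KO lines were 33 (lane 6), 41 (lane 7) and 72 (lane 6). The cells came from mid-gestation embryos whose internal organs had been removed, and neither age, sex nor litter was labelled for a line. P-values thus set the genotype difference against the spread between these lines, with any difference in age, sex or litter included. Where such a difference goes with genotype, it enters the genotype difference as well. The comparison addressed whether loss of HAT1 altered the mRNA of the respiratory machinery.

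Complexes I to IV pass electrons from NADH and succinate to oxygen along the inner mitochondrial membrane, and complexes I, III and IV pump protons as they do so. Complex V uses the returning protons to make ATP. All of the subunits of complex II, and most of those of the other complexes, are encoded in the nucleus, while a small set is encoded in mitochondrial DNA. The 13 subunits encoded in mitochondrial DNA were not analysed here.

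Nuclear genes of this system are classic targets of the factors NRF1, GABP (of the ETS family), YY1 and the ERR receptors. Promoter windows of 280 bases, from 250 before to 30 after the annotated start, were read from RefSeq on GRCm38.p6 for 67 of the 82 members. Letters from the binding sites of these factors were searched on both strands. GCATGCGC, from the NRF1 site, occurred in 9 of 67 members (13.4%), against 2.92% of 27025 genes with a window and 5.18% of the 11558 tested genes with one. CCGGAAG, from the ETS site, occurred in 17 members (25.4%), against 9.48% of all genes and 17.6% of tested genes. AAGATGG, from the YY1 site, occurred in 6 members (8.96%, against 6.47% of all genes and 6.83% of tested genes). TCAAGGTCA, from the ERR site, occurred in 1 (1.49%, against 0.459% of all genes and 0.329% of tested genes). At least 1 of these 4 strings was present in 27 members (40.3%), against 17.8% of all genes. The share among tested genes, which held the NRF1 and ETS strings more often than all genes, was not counted. The more general CCAAT string was about as frequent in members (43.3%) as in all genes (39.7%). A match is a description of letters and not of a bound site.

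The windows below belong to the member with the smallest p-value of the genotype comparison in each complex, among those with a window, and are shown to set the letters in front of these genes beside each other. Each is written 5′ to 3′ on the strand of the gene, and capitals mark the matches to the 5 strings. They lie at chr19:4012726-4013005 (minus strand), chr9:50603820-50604099 (minus strand), chr9:108936398-108936677 (plus strand), chrX:106015450-106015729 (plus strand) and chr11:96075602-96075881 (minus strand) of GRCm38.p6.
Ndufv1: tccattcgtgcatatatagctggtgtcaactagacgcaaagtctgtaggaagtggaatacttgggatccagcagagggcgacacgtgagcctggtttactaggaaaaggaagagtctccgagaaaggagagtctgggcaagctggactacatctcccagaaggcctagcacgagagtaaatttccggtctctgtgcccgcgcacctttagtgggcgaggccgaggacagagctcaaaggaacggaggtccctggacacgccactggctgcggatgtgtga
Sdhd: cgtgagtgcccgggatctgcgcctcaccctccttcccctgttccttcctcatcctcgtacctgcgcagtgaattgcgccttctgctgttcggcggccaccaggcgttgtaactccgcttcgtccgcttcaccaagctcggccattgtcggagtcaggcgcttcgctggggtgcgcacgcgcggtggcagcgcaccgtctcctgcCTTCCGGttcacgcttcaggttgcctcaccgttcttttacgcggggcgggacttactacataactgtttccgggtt
Uqcrc1: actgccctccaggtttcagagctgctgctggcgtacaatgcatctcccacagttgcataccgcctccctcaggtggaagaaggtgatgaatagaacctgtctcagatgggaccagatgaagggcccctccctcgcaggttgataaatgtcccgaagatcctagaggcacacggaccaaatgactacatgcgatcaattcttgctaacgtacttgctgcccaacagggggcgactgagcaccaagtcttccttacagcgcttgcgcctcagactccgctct
Cox7b: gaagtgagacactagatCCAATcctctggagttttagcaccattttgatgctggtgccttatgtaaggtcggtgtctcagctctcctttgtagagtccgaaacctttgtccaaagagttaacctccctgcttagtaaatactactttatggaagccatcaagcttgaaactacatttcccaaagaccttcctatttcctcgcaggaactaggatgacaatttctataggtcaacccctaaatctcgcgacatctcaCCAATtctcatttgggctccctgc
Atp5g1: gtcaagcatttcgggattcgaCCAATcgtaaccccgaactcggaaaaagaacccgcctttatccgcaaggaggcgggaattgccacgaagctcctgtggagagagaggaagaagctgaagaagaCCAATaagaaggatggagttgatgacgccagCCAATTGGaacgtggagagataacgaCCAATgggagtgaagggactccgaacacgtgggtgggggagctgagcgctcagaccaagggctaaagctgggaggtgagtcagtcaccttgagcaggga

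Ndufv1 and Uqcrc1 held none of the 5 strings, Sdhd held 1 ETS match 46 bases before the start, Cox7b held 2 CCAAT matches, and Atp5g1 held 5, of which 2 overlapped on opposite strands. The next 2 windows, at chr9:44920713-44920992 (minus strand) and chr16:84834947-84835226 (minus strand), are shown for contrast. They were chosen as the smallest p-values among the members with 2 of the 4 factor strings, the most that any member held.
Atp5l: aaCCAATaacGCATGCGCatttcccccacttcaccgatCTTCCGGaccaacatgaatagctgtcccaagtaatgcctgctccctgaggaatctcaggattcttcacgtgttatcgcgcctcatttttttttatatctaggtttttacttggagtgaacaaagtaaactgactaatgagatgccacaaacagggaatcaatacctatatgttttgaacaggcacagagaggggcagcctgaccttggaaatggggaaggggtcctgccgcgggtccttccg
Atp5j: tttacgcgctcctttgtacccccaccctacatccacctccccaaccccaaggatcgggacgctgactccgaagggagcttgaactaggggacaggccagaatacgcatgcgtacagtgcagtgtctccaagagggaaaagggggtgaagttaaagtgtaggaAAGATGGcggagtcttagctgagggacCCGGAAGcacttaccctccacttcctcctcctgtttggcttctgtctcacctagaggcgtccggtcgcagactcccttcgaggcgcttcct

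In Atp5l, which codes for a membrane subunit of ATP synthase, the NRF1 match began 240 bases and the ETS match 212 bases before the start. In Atp5j, which codes for a subunit of the peripheral stalk, the YY1 match began 88 and the ETS match 61 bases before the start. Of the 15 members with a window that were higher in HAT1 KO at an unadjusted p under 0.05, 0 held the NRF1 string, 0 the YY1 string and 1 each the ETS and ERR strings. Both Atp5l and Atp5j were outside those 15.

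The labels and the cells were checked first. Total counts ranged from 67720628 to 98786746 per library, with line WT 78 the deepest. Hat1 lay between 17.4 and 23.0 CPM (counts per 1e6 counts of the library, scaled by TMM) among the HAT1 WT libraries and between 10.0 and 10.3 CPM among the HAT1 KO libraries, a log2 fold change of -0.99 (edgeR adjusted p = 0.0376). The labels do not say which part of the gene the KO allele lacks, and Hat1 mRNA was still counted in the KO lines. Fibroblast markers summed to between 57738 and 89814 CPM per line and epithelial markers to between 1.09 and 2.49 CPM. Of 10 macrophage markers, 10 were lower in HAT1 KO at an unadjusted p under 0.05, against 8.77% of all tested genes. Their sums were 4952 to 5443 CPM in WT and 2411 to 3010 in KO, with none at 0. Of 12 proliferation markers, 8 were higher at that p, against 5.88% of all tested genes. Their sums were 507 to 753 CPM in WT and 786 to 1036 in KO. Ddx3y, a Y-linked gene, lay at 92.0 and 83.1 CPM in WT lines 36 and 47 and at 1.27 CPM or less in the other 4 lines. Xist, expressed from the inactive X chromosome, lay at 1.25 and 14.6 CPM in WT lines 36 and 47, at 298 in WT 78 and between 146 and 191 in KO. The part of these differences in the results that follow was not tested, and in bulk RNA fewer cells of a type and less RNA per cell cannot be told apart. Ddx3y was high in WT lines only, so sex and genotype cannot be told apart in these lines.

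Subunit mRNAs were abundant and took between 0.413% and 0.512% of each library. Levels between genes were compared per kilobase of transcript, for the 72 tested members with a clear transcript length. The median over the 6 lines was 28.8 CPM per kb in complex I, 50.5 in complex II, 46.7 in complex III, 57.1 in complex IV and 84.9 in complex V. Atp5b, the catalytic beta subunit of the F1 head, was the most abundant at 411 CPM per kb. It was followed by Atp5a1, the alpha subunit of the same head, at 202 and by Cox8a, a small subunit of complex IV, at 157. Uqcrc1 led complex III at 89.8 and Sdha led complex II at 57.1.

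**Figure D1:**
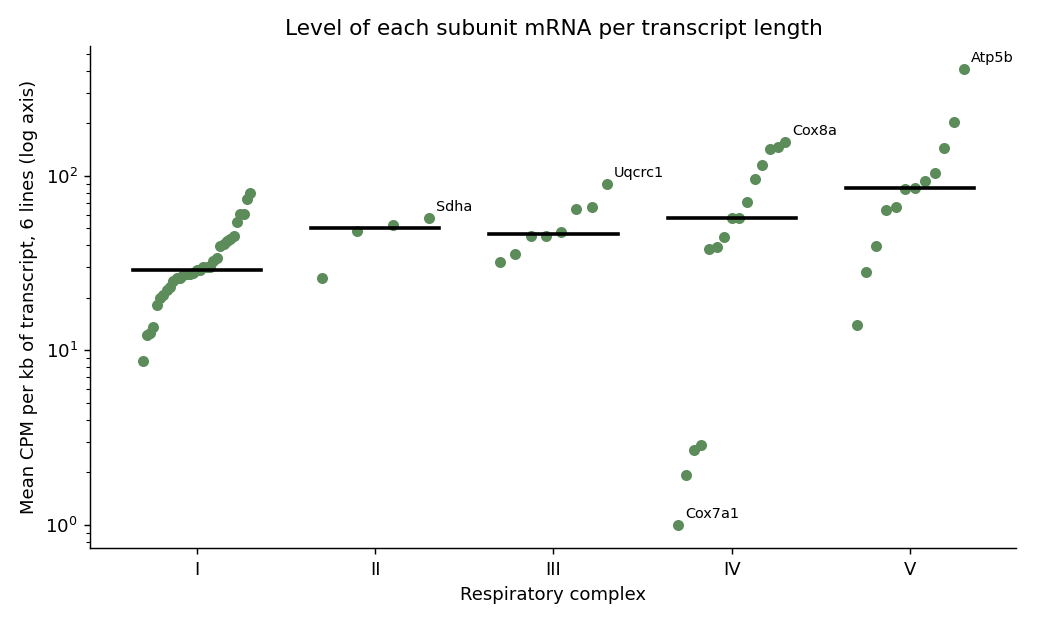
Mean level over the 6 lines of each tested subunit mRNA, in CPM per kilobase of transcript on a log axis, by respiratory complex. Each point is 1 gene and each bar the median of its complex. Atp5b stands at the top at 411, and the 4 low points of complex IV are the tissue isoforms and Ndufa4l2.

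At the low end stood the muscle, testis and hypoxia-linked forms of complex IV. Cox7a1, the heart and skeletal muscle form, made up between 0.716% and 2.39% of the pair with Cox7a2 in the 6 lines, per transcript length. Cox6a2, another muscle form, made up between 0.307% and 1.84% of the pair with Cox6a1, and Cox6b2, the testis form, between 1.11% and 3.43% of the pair with Cox6b1. Line KO 72 was lowest for the muscle forms and line WT 36 was highest for the testis form. Cox8b, a further muscle form, had between 0 and 4 counts per line, at most 0.0906% of the pair with Cox8a, and was too low to test. Of 8 listed skeletal muscle markers, 4 had counts, and they summed to between 26.5 CPM in WT 78 and 78.9 CPM in KO 72. The sum did not follow the order of the muscle forms, but in KO 72 it was mostly Acta1 (74.6 CPM). Des, another of these markers, lay at 26.8, 20.5 and 3.44 CPM in WT lines 36, 47 and 78. In KO lines 33, 41 and 72 it lay at 10.7, 25.3 and 3.91 CPM, so it was low in KO 72 as the muscle forms were.

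Ndufa4l2, a hypoxia-inducible relative of the complex IV subunit Ndufa4, was the most variable member. It had 273, 140 and 176 counts in WT lines 36, 47 and 78 and 545, 106 and 18 in KO lines 33, 41 and 72. The KO lines thus lay both above and below the WT range, and the log2 fold change was 0.15 ± 1.00 (SE). Ndufa11b, which matched the symbol rule but is annotated as a processed pseudogene, had between 0.0112 and 0.124 CPM and was too low to test.

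The WT and KO lines were then compared for every member in 1 fit over all tested genes. Subunit mRNAs were slightly higher in HAT1 KO, and none passed the test after adjustment. The log2 fold change (KO minus WT) was above 0 in 74 of the 80 tested members (92.5%, against 51.5% of all tested genes). Its median was 0.14, a 1.10-fold higher level, against 0.0085 for all tested genes, and it ranged from -0.36 to 0.27. By edgeR's quasi-likelihood test with Benjamini-Hochberg adjustment over all genes, 0 of 80 members were below an adjusted p of 0.05 (background 0.528%), and the smallest adjusted p was 0.210. The DESeq2 Wald test also called 0 members after adjustment, with a smallest adjusted p of 0.0615, against 871 of 14716 genes called. At an unadjusted p under 0.05 that test had 22 members higher and 0 lower, and 7.52% of all genes were higher.

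At an unadjusted p under 0.05, 19 of 80 members (23.75%) were higher in HAT1 KO, against 5.88% of all tested genes, and 0 were lower, against 8.77%. No member reached a change of 1.5-fold at that p, the size the study uses, against 6.11% of all tested genes. In 26 members (32.5%) every KO line lay above every WT line, against 9.59% of all tested genes. In 0 members did every KO line lie below every WT line, against 12.4%. Subunit mRNAs are abundant, and among genes with a mean of at least 10 CPM, fitted alone, 13 of 72 members were called higher against a background of 7% (a filter added after the data were seen). The members vary together from line to line, so these counts do not stand for independent genes.

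**Figure D2:**
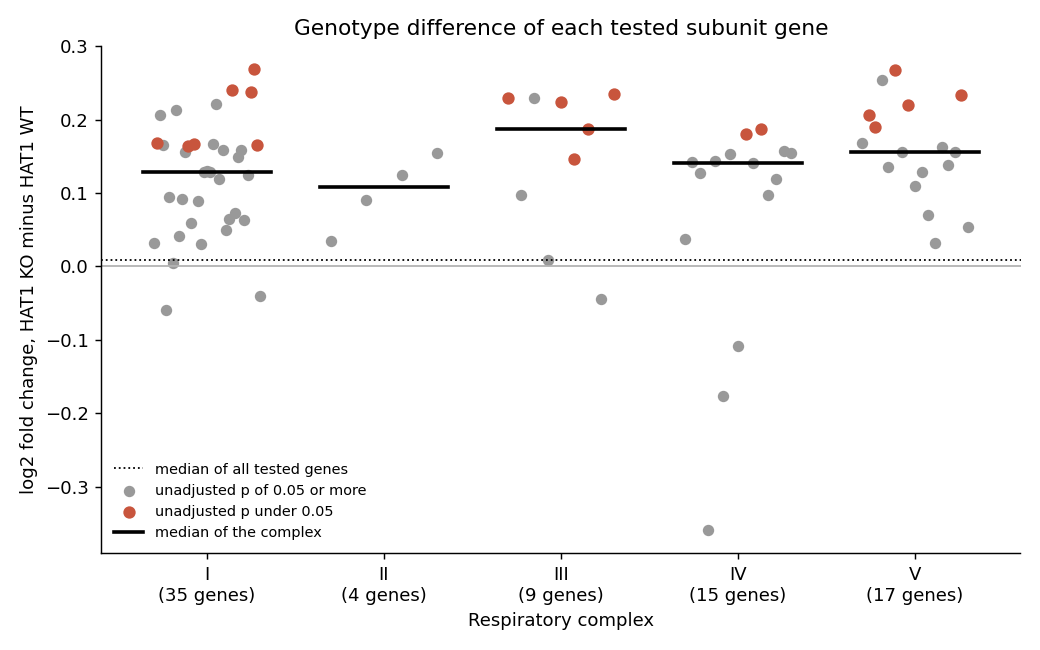
Log2 fold change (HAT1 KO minus HAT1 WT, 3 lines each) of each of the 80 tested subunit genes, by respiratory complex. Red points have an unadjusted p under 0.05 and gray points do not, bars are the median of each complex and the dotted line is the median of all tested genes. The medians lie between 0.11 and 0.19, and the 3 points of complex IV below 0 are low-level tissue isoforms.

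By complex, the median log2 fold change was 0.13 in complex I, 0.11 in complex II, 0.19 in complex III, 0.14 in complex IV and 0.16 in complex V. Members called higher at an unadjusted p under 0.05 numbered 7 of 35, 0 of 4, 5 of 9, 2 of 15 and 5 of 17. These shares were 20%, 0%, 55.6%, 13.3% and 29.4%, against 5.88% of all tested genes. The difference between complexes was not tested.

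The CPM summed over all members came to 4728, 4637 and 4126 for WT lines 36, 47 and 78 and to 5008, 4936 and 5099 for KO lines 33, 41 and 72. The KO lines all lay above the WT lines, and their mean was 111.5% of the WT mean. The sums did not overlap between genotypes in complexes I, III, IV and V either, with KO means at 110.1%, 112.6%, 109.65% and 113.5% of the WT means. In complex II they overlapped, with a KO mean at 105.9%. The complex V sum was the most even among the KO lines, at 2293 ± 11.1 CPM (SD, n = 3), against 2020 ± 158 CPM in the WT lines. Such sums are weighted toward abundant genes, here Atp5b and Atp5a1, with means of 788 and 500 CPM over the 6 lines. Among single members of complex V, the CV between KO lines ran from 0.380% for Atp5b to 20.2% for Atp5k.

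**Figure D3:**
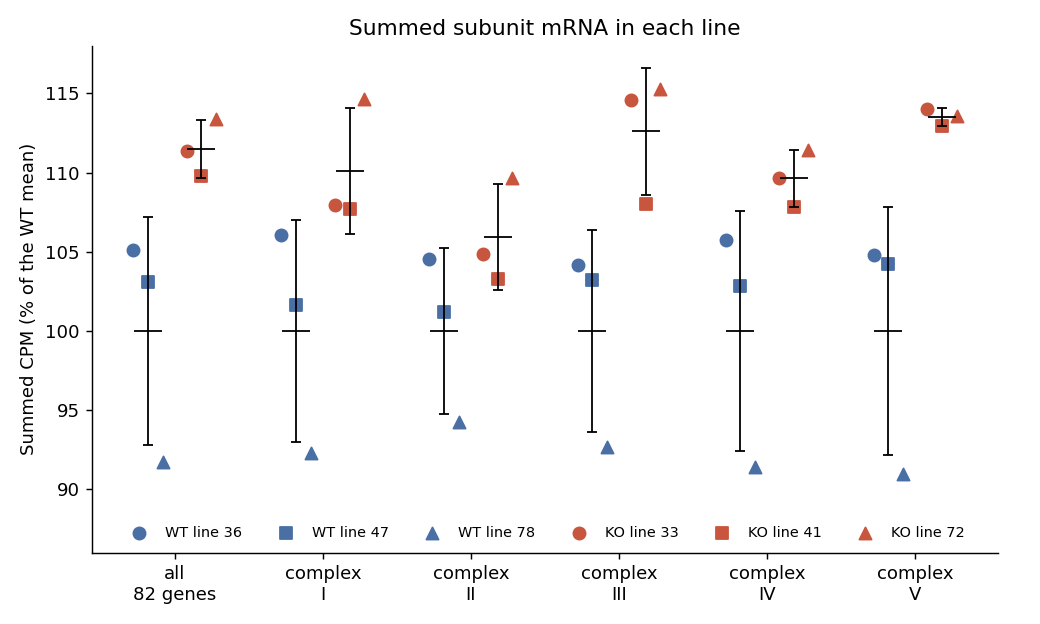
Summed CPM of the subunit genes in each line, as a percentage of the WT mean, for all 82 genes and for each complex. Points are lines, and black bars are the mean ± SD of 3 lines. WT line 78 is the lowest line in every group, and KO and WT points overlap in complex II only.

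Complex I takes electrons from NADH through its N module and hands them to ubiquinone in its Q module. Ndufv1, which binds the flavin that accepts electrons from NADH, had the smallest p of all members. It lay at 63.3, 62.3 and 54.4 CPM in WT lines 36, 47 and 78 and at 73.2, 73.7 and 69.8 CPM in KO lines 33, 41 and 72. The groups did not overlap, and the log2 fold change was 0.27 ± 0.077 (SE, unadjusted p = 0.0117, adjusted p = 0.210, edgeR). Ndufv2, its iron-sulfur partner in the N module, lay between 44.2 and 47.4 CPM in WT and between 50.8 and 52.9 in KO, a log2 fold change of 0.17 ± 0.059. Ndufs1, the largest subunit of that module, lay between 58.6 and 61.5 CPM in WT and between 60.5 and 65.8 in KO, and its groups overlapped (log2 fold change 0.064 ± 0.061).

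In the Q module, Ndufs8, a carrier of iron-sulfur clusters, lay at 25.2, 24.3 and 22.3 CPM in WT and at 30.04, 25.2 and 29.4 in KO. KO 41 lay level with WT 36 there (log2 fold change 0.24 ± 0.097). Ndufs3 and Ndufs7, further core subunits of the Q module, had log2 fold changes of 0.07 and 0.12 and overlapping groups.

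Among the 28 tested accessory subunits of complex I, 26 had a log2 fold change above 0 (92.9%, against 51.5% of all tested genes). At an unadjusted p under 0.05, 3 were called higher (10.7%, against 5.88% of all tested genes). Those called were Ndufa10 (0.17), Ndufa9 (0.16) and the X-linked Ndufb11 (0.17), which support the assembly or stability of the complex. Ndufa13 had the lowest value of complex I, -0.06, with 33.1, 30.05 and 21.7 CPM in WT and 24.7, 27.9 and 29.0 in KO. Its WT lines spanned the whole KO range. The X-linked Ndufa1 differed little, with a log2 fold change of 0.03 and overlapping groups.

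Complex II oxidizes succinate to fumarate and is shared with the tricarboxylic acid cycle. Sdha, its flavoprotein, lay at 173, 162 and 155 CPM in WT and 161, 161 and 180 in KO. The groups overlapped and the log2 fold change was 0.03 ± 0.079. Sdhb, the iron-sulfur subunit, had a log2 fold change of 0.09 with overlapping groups. The membrane anchors Sdhc and Sdhd did not overlap between genotypes, with log2 fold changes of 0.12 and 0.15. Sdhd had the smallest unadjusted p of the complex, 0.0608 (edgeR).

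Complex III carries electrons from ubiquinol to cytochrome c. Its 2 nuclear redox subunits and its 2 core proteins were all among the members called higher, against 5.88% of all tested genes. None of these calls held in every fit with a line left out. Cyc1, cytochrome c1, lay at 44.1, 47.8 and 42.1 CPM in WT lines 36, 47 and 78 and at 55.9, 49.1 and 52.0 in KO lines 33, 41 and 72 (log2 fold change 0.23 ± 0.080, unadjusted p = 0.0276). Uqcrfs1, the Rieske iron-sulfur protein, lay between 42.6 and 47.8 CPM in WT and between 49.5 and 55.1 in KO (0.19 ± 0.075). Neither gene overlapped between genotypes.

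The core proteins behaved likewise. Uqcrc1 lay at 144, 144 and 123 CPM in WT and at 165, 154 and 161 in KO, a log2 fold change of 0.22 ± 0.083. Uqcrc2 lay at 83.7, 81.0 and 80.6 CPM in WT and at 88.9, 91.2 and 91.5 in KO (0.15 ± 0.053). Of the 5 small subunits, Uqcrq was called higher, with a log2 fold change of 0.23 and no overlap. The other small subunits overlapped between genotypes, and Uqcrh, the hinge protein, had the lowest value of the complex at -0.04.

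Complex IV passes electrons from cytochrome c to oxygen. Its catalytic centers are encoded in mitochondrial DNA, and the nuclear subunits surround them. Cox7b, which is X-linked, lay at 38.4, 36.03 and 35.3 CPM in WT and at 40.2, 40.99 and 43.8 in KO, without overlap (log2 fold change 0.19 ± 0.069, unadjusted p = 0.0326). Cox7a2, the widely expressed form of its family, lay at 34.7, 37.8 and 34.3 CPM in WT and at 40.3, 38.4 and 42.2 in KO (0.18 ± 0.072). These were the 2 members of complex IV called higher.

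All 10 general subunits of complex IV had a log2 fold change above 0 (8, without Cox5a and Cox7c, with each line left out), and Ndufa4 did not overlap between genotypes either (0.16). Cox5b (0.14), Cox6a1 (0.13), Cox6b1 (0.14) and Cox8a (0.12) overlapped, and so did Cox7a2l (0.14), a factor that joins complexes III and IV. Cox5a, at 0.04, was the lowest of the general subunits. Cox6a2, Cox6b2 and Cox7a1 had log2 fold changes of -0.36, -0.18 and -0.11 with standard errors between 0.48 and 0.57, so their direction was not resolved. Cox4i1, the main form of a further subunit that the symbol rule did not match, had a log2 fold change of 0.12 (unadjusted p = 0.226, edgeR).

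Complex V couples proton flow through a membrane ring of c subunits to the rotary F1 head. All 17 members had a log2 fold change above 0, and 15 of them, without Atp5j2 and Atp5k, kept it with each line left out. Atp5g1, 1 of the 3 genes for the same c subunit, lay at 56.3, 56.8 and 48.1 CPM in WT lines 36, 47 and 78 and at 67.1, 63.0 and 63.9 in KO lines 33, 41 and 72. The groups did not overlap (log2 fold change 0.27 ± 0.083, unadjusted p = 0.0164). Atp5g3 lay at 99.0, 103 and 88.7 CPM in WT and at 113, 112 and 114 in KO (0.22 ± 0.072), again without overlap. Atp5g2, the remaining gene for the ring, overlapped (0.16).

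In the F1 head, Atp5b lay at 769, 764 and 662 CPM in WT and at 847, 841 and 844 in KO. Its KO mean was 844 ± 3.21 CPM against 732 ± 60.4 in WT (SD, n = 3), a log2 fold change of 0.21 ± 0.085 (unadjusted p = 0.0489, adjusted p = 0.337, edgeR). Atp5c1, the gamma subunit of the rotating stalk, lay at 73.5, 68.2 and 67.4 CPM in WT and at 79.7, 77.1 and 81.6 in KO (0.19 ± 0.062). Atp5a1 (0.17) and Atp5d (0.25), the delta subunit of the stalk, also did not overlap between genotypes but had unadjusted p-values of 0.101 and 0.0576. Atp5o, the peripheral stalk subunit that contacts the head, was the fifth member called higher, with 65.5, 68.9 and 60.0 CPM in WT and 79.1, 79.0 and 70.5 in KO. Atp5k had the lowest value of the complex, 0.03.

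Where the counts could be shared with other sequences, they carry that limit. Of the called members, Cox7b has 2 near-identical pseudogene copies, and Atp5g1, Atp5o and Ndufb11 have 1 each. Exons of Ndufa9, Ndufb11, Uqcrc2 and Atp5o overlap a gene on the opposite strand, and the use of strand in counting is not given in the sources used here. Exons of Atp5o also overlap another annotated gene of the same name on its own strand. Over all members, 21 of 82 have such a copy, with a maximum of 7 for Atp5l.

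The difference between genotypes was then read line by line. The median log2 deviation of the 80 members from the WT mean was 0.07 in WT 36, 0.05 in WT 47 and -0.12 in WT 78, and 0.13 in KO 33, 0.11 in KO 41 and 0.19 in KO 72. WT 78 was the lowest of the 6 lines in 65 of 80 members (81.25%), whereas it was the lowest in 19.98% of all tested genes. KO 72 was the highest in 41 members (26.03% of all tested genes), KO 33 in 18 (18.9%) and KO 41 in 13 (12.1%), the latter counts being near the background. The median CV of a member was 7.91% between WT lines and 6.05% between KO lines. Over all tested genes it was 9.43% and 13.0%, and over those with a mean of at least 10 CPM it was 6.66% and 8.95%.

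**Figure D4:**
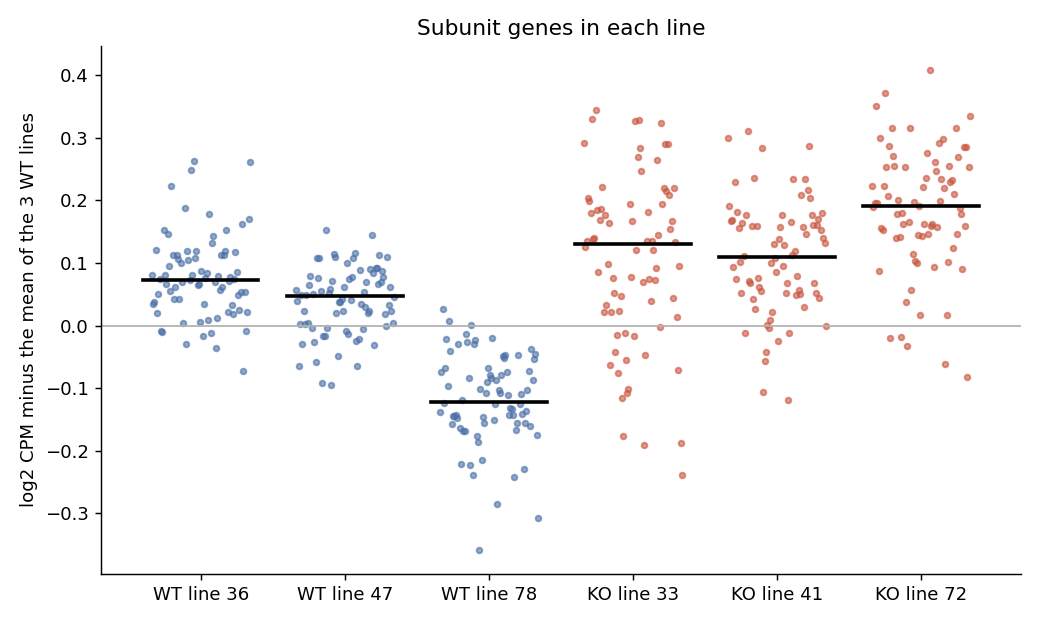
Log2 CPM of each tested subunit gene minus its mean over the 3 WT lines, by line. Each point is 1 gene, bars are the medians of all 80 tested genes, and the 4 low-level isoforms Ndufa4l2, Cox6a2, Cox6b2 and Cox7a1 are left out of the points. The WT 78 median is -0.12 and the KO medians are 0.11 to 0.19.

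Without WT 78, the median log2 fold change of the members was 0.09, 60 of 80 were above 0, and 5 were called higher, against 3.12% of all tested genes in that fit. The calls at an unadjusted p under 0.05 also fell to 10 without WT 36 (3.02% of all genes), 10 without WT 47 (4.999%), 7 without KO 33 (4.30%), 11 without KO 41 (5.41%) and 14 without KO 72 (9.06%). The share called over all genes thus moved with the line left out as well. Ndufv1 and Atp5g3 were called higher with each of the 6 lines left out. Atp5g1 was called in 5 of these 6 fits, and Atp5b, which passed narrowly, in 0.

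Within lane 6, KO 33 and KO 72 were higher than WT 47 in 66 of 80 members, with a median log2 difference of 0.11. Within lane 7, KO 41 was higher than WT 78 in 76 members, with a median of 0.22. Lane 8 held WT 36 alone. With lane as a term in the fit, the median was 0.16 and 6 members were called higher, against 1.39% of all tested genes. With the first digit of the line number (3, 4 or 7) as a term instead, the median was 0.14 and 5 were called, against 4.35% of all tested genes.

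Single pairs of lines with the same first digit gave unlike sizes. KO 33 was higher than WT 36 in 49 of 80 members (median 0.06) and KO 41 higher than WT 47 in 54 (0.06), while KO 72 was higher than WT 78 in 75 (0.30). Against WT 78, the WT line with high Xist and little Y-linked mRNA like the KO lines, the KO mean was higher in 77 members (median 0.24). Against WT 36 and WT 47 it was higher in 59 (0.08). WT 78 is a single line and the lowest of all lines in 65 of 80 members. Its sex and its other traits therefore cannot be told apart here. In each of these sets of lines, the median over all tested genes lay between -0.02 and 0.01.

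**Figure D5:**
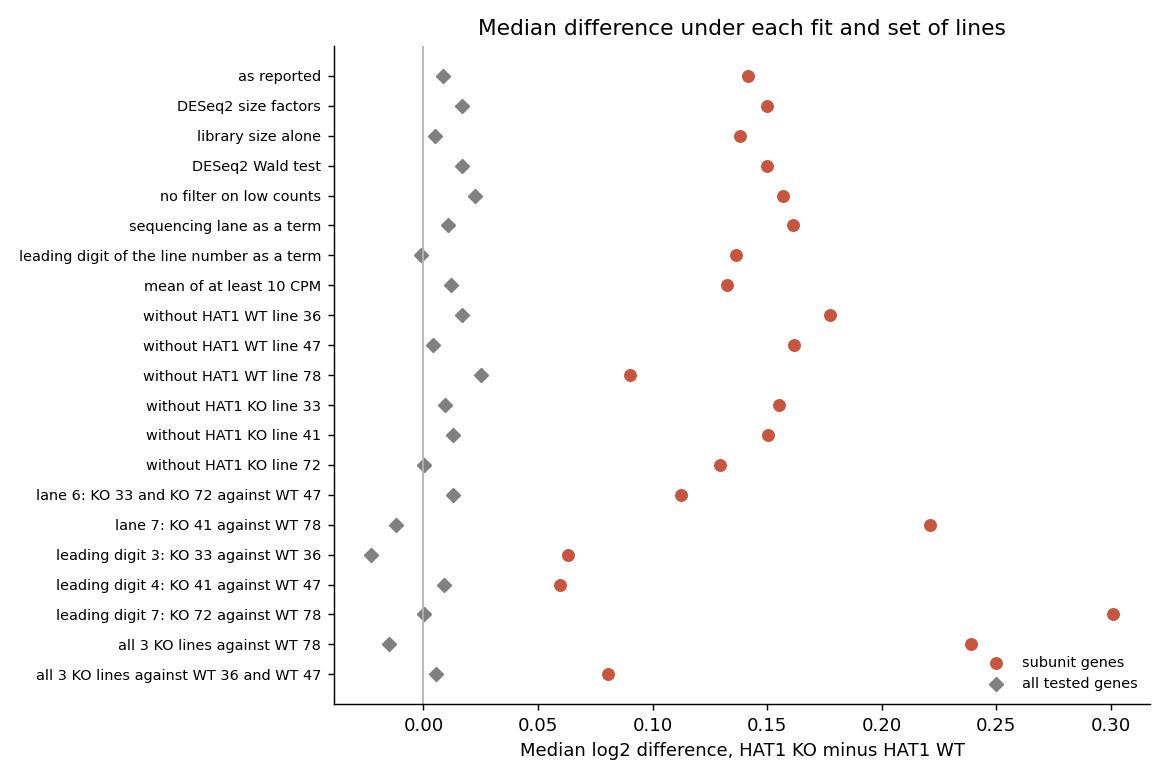
Median log2 difference (HAT1 KO minus HAT1 WT) of the tested subunit genes (circles) and of all tested genes (diamonds) under each fit, with each line left out, and within sets of lines. The subunit median is 0.14 as reported and lies between 0.06 and 0.30 in all of them, lowest where WT 78 takes no part.

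Other genes of mitochondrial respiration were read from lists. Over all tested genes, 5.88% were higher and 8.77% lower at an unadjusted p under 0.05, and 51.5% had a log2 fold change above 0. The 77 mitochondrial ribosomal protein genes serve the translation of the subunits encoded in mitochondrial DNA. Of these, 12 were higher at an unadjusted p under 0.05, 0 were lower and 72 had a log2 fold change above 0, with a median of 0.13. The 4 with the smallest p were Mrps24 (0.35), Mrpl12 (0.37), Mrpl37 (0.24) and Mrpl18 (0.31). The count lay between 3 (without WT 78 or KO 33) and 18 (without KO 72) when a line was left out, and it was 4 without WT 36 and 8 without KO 41.

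The tricarboxylic acid cycle supplies the NADH and succinate. Of its 13 enzymes, 4 were higher, against 5.88% of all tested genes, and 13 had a log2 fold change above 0, against 51.5%. Their median was 0.12. Fh1, fumarate hydratase, lay at 54.4, 54.5 and 54.6 CPM in WT lines 36, 47 and 78 and at 65.9, 62.4 and 64.6 in KO lines 33, 41 and 72. Its WT lines were close together and its groups stood apart (log2 fold change 0.24 ± 0.053, adjusted p = 0.135, edgeR). Idh3a (0.25), Dlst (0.17) and Cs, citrate synthase (0.22), were the other enzymes called. The count was 2 without WT 36, WT 78 or KO 72.

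Of the 51 tested assembly factors of the 5 complexes, 5 were higher, 0 were lower and 37 had a log2 fold change above 0, with a median of 0.11. The background over all tested genes was 5.88% higher, 8.77% lower and 51.5% above 0, as for the other lists. Those called were the complex I factors Ndufaf7 (0.29), Ndufaf5 (0.36) and Acad9 (0.29), the complex III factor Bcs1l (0.24) and the complex V factor Atpaf2 (0.19). The count for complex I factors, 3 of 16, was 0 without WT 36 and 1 without WT 47 or WT 78. None of the 20 tested complex IV factors or the 4 complex II factors was called at an unadjusted p under 0.05 by edgeR.

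Of 12 regulators of mitochondrial biogenesis, 1 was higher and 1 lower at an unadjusted p under 0.05, shares near the background of 5.88% and 8.77%. Tfam, which packages and transcribes mitochondrial DNA, lay at 17.7, 19.0 and 20.7 CPM in WT and at 25.1, 23.2 and 20.6 in KO, with a slight overlap (log2 fold change 0.26 ± 0.11). Ppargc1a, a coactivator of these genes, was near the limit of detection with 16, 24 and 46 counts in WT lines 36, 47 and 78 and 10, 8 and 6 counts in KO lines 33, 41 and 72. Its log2 fold change was -1.65 ± 0.44 (adjusted p = 0.193, edgeR). Nrf1 (0.13), Gabpa (-0.02), Esrra (-0.07) and Yy1 (-0.07), the factors whose binding letters were searched above, were not called. Ppargc1a was called with each line left out, and Tfam only without WT 78 or KO 72.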

How the data were processed

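RNA-seq of 6 lines of primary fibroblasts was analysed from the raw read counts per gene that the authors deposited, without normalization. Beside the counts stood results of a genotype comparison run by the authors. Those deposited columns, a log2 fold change, a log2 mean CPM, an F score, a p-value and a q-value, were not used. The submitters' processing notes name edgeR and mm10, and the aligner, the counter, their versions and the use of strand are not given in the sources used here. The total counts per library, given in the text, set the counting error, which matters for genes with few counts only. No column of sample values was left without a sample.

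The main test was the quasi-likelihood test of edgeR 4.0.16 (R 4.3.3), with filterByExpr, TMM scaling and genotype as the only term, fitted over all genes (two-sided, Benjamini-Hochberg adjustment, threshold 0.05). Standard errors are approximate, taken as the log2 fold change over the root of its F statistic. CPM values are TMM-scaled. With 3 lines against 3, an exact permutation test of a single value cannot go below p = 0.1, so none is given. The fit was tested on simulated counts of genes drawn independently, with larger effects than any member showed. That run therefore does not cover effects of the members' size or genes that vary together. Positions, transcript lengths and pseudogene copies (at least 95% identity over 80% of the coding length) came from GENCODE M21 on GRCm38, and promoter windows from RefSeq.

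The members and lists were chosen with earlier results of these data known. Members named are those with an unadjusted p under 0.05, the highest and lowest of each complex, core subunits, tissue isoforms and their partners, X-linked members and members too low to test. The values of 1 member are not reported here. In each related list up to 4 genes with the smallest p under 0.05 are named, and other genes of the lists were named after their values were seen. Alternatives were DESeq2 1.42.0 (size factors and Wald test), library size alone, no filter, a filter at a mean of 10 CPM, lane or the first digit of a line's number as a term, and each line left out.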

Additional observations from a re-analysis of the deposited data

How the results depend on the processing

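The count of 0 members at an adjusted p under 0.05 held under every alternative, and the smallest adjusted p of a member was 0.0615, by the DESeq2 Wald test. The 19 members higher at an unadjusted p under 0.05 became 6 with lane and 5 with the first digit of a line's number as a term, and between 5 and 14 with a line left out. They were 22 by DESeq2 (7.52% of all genes), 20 with DESeq2 size factors (6.28%), 22 with no filter (6.13%), 15 with library size alone (5.46%) and 13 with the 10 CPM filter (7%), which was chosen after seeing the data. The median log2 fold change lay between 0.090 (without WT 78) and 0.178 (without WT 36), with the other alternatives between. With a line left out, 22 of 80 members took both signs, 11 of them in complex I and 6 in complex IV. With lane as a term, the log2 fold change was 0.057 for Ndufa13, 0.0070 for Uqcrh and 0.35 for Cox6b2, and with the first digit as a term it was -0.63 for Ndufa4l2. With a line left out, the values of named members lay between -0.21 and 0.072 for Ndufa13, -0.15 and 0.028 for Uqcrh, -0.85 and 0.089 for Cox6a2, -0.011 and 0.082 for Sdha, -0.035 and 0.12 for Cox5a, -1.40 and 0.71 for Ndufa4l2, -0.52 and 0.38 for Cox6b2, -0.50 and 0.23 for Cox7a1, and -0.010 and 0.077 for Ndufa1. The cause was not tested. Among the other values of named members under the alternatives, 378 kept their direction and side of the threshold, 101 lost an unadjusted p under 0.05 and 6 gained it. No analysis paired by replicate number was possible because the genotypes share none. The fit with the first digit as a term pairs lines by a digit that no label ties to a litter. Counting error matters most for Cox8b, Ndufa11b and Ppargc1a, which have few counts, and for abundant members the spread over 3 lines a genotype sets the precision.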
